A study of Mus musculus with 6 samples.

Results

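The genes described here code for the subunits of RNA polymerases I, II and III. They were chosen by name, as every protein-coding gene of the deposited table whose symbol begins with Polr1, Polr2 or Polr3 and a letter, which gave 28 of 21139 genes, of which 27 are described. Expression was measured in 6 libraries of mouse CD4+ T cells from the spleen of strain C57BL/6J. Antibodies to CD3 and CD28 activated all of the cells during 2 days of culture; they stand in for antigen receptor and co-stimulatory signals. In one group of 3 libraries the cells had medium alone, and in the other group of 3 they also had CpdA, a compound that the design text calls a Gpr120 agonist (Gpr120 binds long-chain fatty acids at the cell surface). The dose is given in the labels as 20 with a unit read here as µM. The sources used here do not say what vehicle the medium group had, or whether libraries came from separate animals or cultures. The p-values therefore reflect the spread among these 6 libraries, which may be technical.

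RNA polymerase I makes the large ribosomal RNA precursor in the nucleolus, RNA polymerase II makes messenger RNA, and RNA polymerase III makes transfer RNA, the small ribosomal RNA and other short RNAs. Each enzyme has its own pair of large catalytic subunits, while some small subunits are built into more than one enzyme. Resting T cells are small and make little RNA, and activation through the antigen receptor raises ribosome and transfer RNA production ahead of division. By the enzyme they belong to, 3 of the genes (Polr1a, Polr1b and Polr1e) are specific to polymerase I, 8 to polymerase II and 9 to polymerase III. Another 2 (Polr1c and Polr1d) code for subunits that polymerases I and III share, and 5 (Polr2e, Polr2f, Polr2h, Polr2k and Polr2l) for subunits built into all 3 enzymes.

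Library totals ran from 20247761 to 25952169 counts, and each of the 27 genes had between 220 and 9053 counts in every library, so all passed the filter on low counts. Libraries of one group differed from each other by more than sampling noise (chi-square per degree of freedom 2.18 to 4.18, against 10.8 to 18.7 between groups). The CD4 T cell markers Cd4, Cd3d, Cd3e and Cd5 summed to 1312 to 1378 CPM (counts scaled to the library total) in the 6 libraries, CD8 T cell markers to 7.33 to 9.40 CPM and B cell markers to 22.2 to 28.2 CPM. Macrophage and monocyte markers stayed at or below 1.01 CPM, NK cell markers at or below 0.198 CPM and erythroid markers at or below 0.846 CPM, and Ncr1 and Adgre1 were at or near 0. Dendritic cell markers (Flt3, Itgax and Zbtb46) summed to 5.99 to 6.39 CPM in medium and 6.74 to 8.08 CPM with CpdA, without overlap (two-sided exact permutation p = 0.1, the lowest possible with 3 against 3). The part of dendritic cells in the results below was not tested.

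With CpdA, the 3 Polr1 genes specific to polymerase I rose, though not every polymerase I subunit listed under another name passed the test below. Of the 9 polymerase III genes 3 rose and 2 fell, and of the 8 polymerase II genes 1 rose and 1 fell. Of the 27 genes, 9 rose and 3 fell (44.4%) at an adjusted p under 0.05, by edgeR's quasi-likelihood test with Benjamini-Hochberg adjustment over 13507 genes. The share over all genes tested was 33.2%, with 16.5% higher and 16.7% lower. In the range of mean CPM that the 27 genes span, 43.8% of 7770 genes were called and 23.7% were higher, so the share of subunit genes called was close to that of genes at like levels. The changes were small, and 15 of the 27 genes lay within 10% of their medium level. In bulk RNA, a change in which cells were present and a change in RNA per cell cannot be told apart. The median log2 fold change (CpdA over medium) was 0.08 over the 27 genes and 0.0004 over all genes tested.

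By enzyme, 3 of 3 polymerase I genes rose (median log2 fold change 0.20), with 0 lower by edgeR, at an unadjusted p under 0.05 or by DESeq2. The number that rose was 2 by DESeq2 and without medium replicate 2, CpdA replicate 2 or CpdA replicate 3. Of the 8 polymerase II genes 1 rose and 1 fell (median 0.07, or 0.05 without medium replicate 3). Of the 9 polymerase III genes 3 rose and 2 fell (median 0.06, or 0.13 without medium replicate 1 and 0.03 without medium replicate 3). Among the 5 genes of subunits in all 3 enzymes 2 rose and 0 fell (median 0.13, with 0 lower also at an unadjusted p under 0.05 and by DESeq2). The 2 genes of subunits shared by polymerases I and III had a median of -0.05 and 0 calls by edgeR, at an unadjusted p under 0.05 or by DESeq2. The counts of genes that fell varied with the setting. Of 27 genes, 0 fell without medium replicate 1, and 1 without CpdA replicate 3 or with the replicate number as a block. Calls over all genes also dropped, from 4483 to 3707 without medium replicate 1, 3672 without CpdA replicate 3 and 3936 with the block. The cause was not tested. The rise of the subunits in all 3 enzymes was 1 gene without medium replicate 1, CpdA replicate 1 or CpdA replicate 3, and that of polymerase II was 2 genes without medium replicate 2, medium replicate 3 or CpdA replicate 3. These classes hold few genes, and whether they differ from each other was not tested as such.

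**Figure D1:**
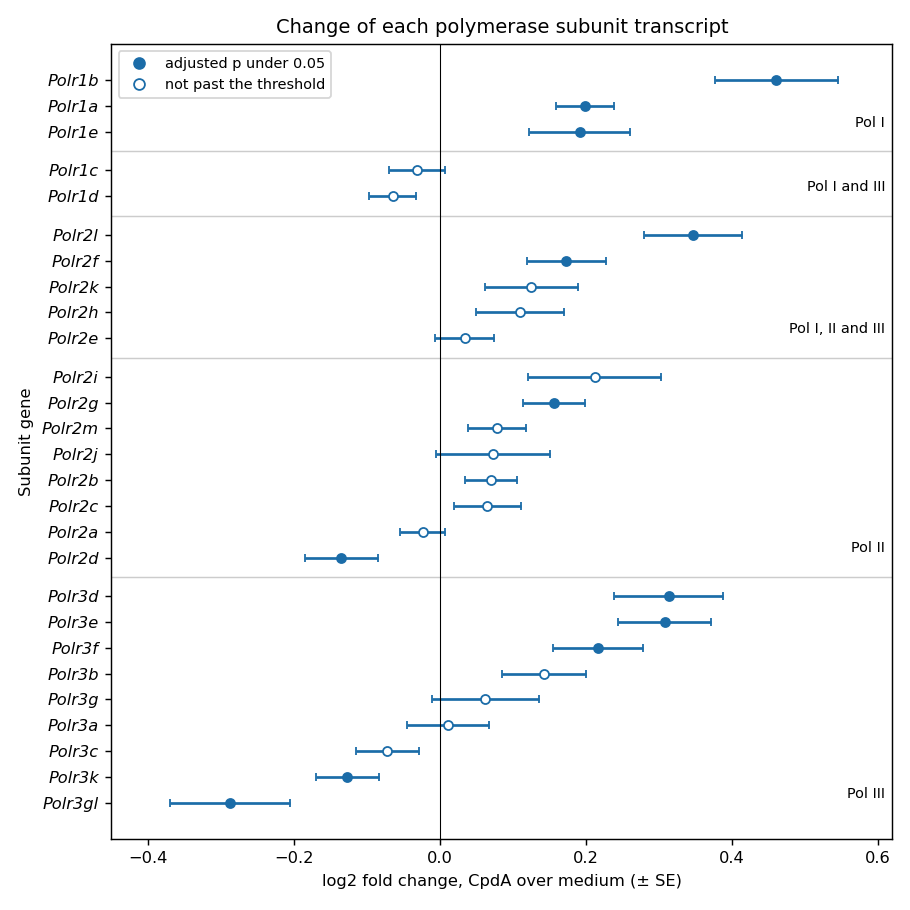
Log2 fold change of each subunit gene, CpdA over medium, with its standard error (SE), grouped by the enzyme the subunit belongs to. Filled points passed an adjusted p under 0.05. The 3 polymerase I genes lie between 0.19 and 0.46, and the polymerase III genes spread from -0.29 to 0.31.

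Polr1b, the second-largest subunit of polymerase I, which forms the active centre together with the largest, had the highest fold change of the 27 genes. Its level (chr2:129100995-129126594, GRCm38) was 39.4, 47.6 and 42.1 CPM in medium and 66.6, 52.6 and 60.6 CPM with CpdA. The groups did not overlap, though CpdA replicate 2 came near the highest medium library. The log2 fold change was 0.46 ± 0.08 (SE, adjusted p = 0.000988, edgeR), or 1.38-fold. Polr1a, the largest subunit, was at 82.6, 88.6 and 83.9 CPM in medium and 96.4, 98.3 and 100.2 CPM with CpdA. All 3 CpdA libraries lay above all 3 medium libraries, with a log2 fold change of 0.20 ± 0.04 (adjusted p = 0.000114).

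Polr1e codes for a subunit that, with a partner, stabilises the enzyme and helps it start and elongate, much like the general factor TFIIF does for polymerase II. It had 20.2, 19.2 and 20.6 CPM in medium and 22.5, 23.7 and 22.8 CPM with CpdA, without overlap. Its log2 fold change of 0.19 ± 0.07 lay near the threshold (adjusted p = 0.0289). It missed the threshold without medium replicate 2 (adjusted p = 0.105), without CpdA replicate 2 (0.0928) or CpdA replicate 3 (0.0559), and under DESeq2 (0.0700). Over all alternatives its adjusted p ran from 0.0213 to 0.105. Transcripts of Polr1a, Polr1b and Polr1e summed to 148.1 ± 6.7 CPM (SD, n = 3) without and 181.2 ± 5.8 CPM (SD, n = 3) with CpdA, a ratio of 1.22, given as a description with no test. The same ratio was 1.02 for the 8 polymerase II genes, 1.02 for the 9 polymerase III genes, 1.10 for the subunits of all 3 enzymes and 0.972 for Polr1c and Polr1d. Such sums are weighted to the most abundant genes. In medium, Polr1a made up 85.1 of 148.1 CPM for polymerase I and Polr2a 348.7 of 760.1 CPM for polymerase II. For polymerase III, Polr3c made up 83.2 and Polr3k 77.7 of 356.9 CPM, and both had negative fold changes.

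The table lists further subunits under names outside the rule. Twistnb, a polymerase I subunit of the stalk where new RNA leaves the enzyme, rose from 33.04 to 40.6 CPM (log2 fold change 0.28 ± 0.06, adjusted p = 0.000204). Znrd1, the small zinc-binding polymerase I subunit needed for RNA cleavage, rose from 27.4 to 30.7 CPM (0.16 ± 0.06, adjusted p = 0.0454). Its call was lost under 8 of 13 alternatives, among them without medium replicate 2 (adjusted p = 0.129), medium replicate 3 (0.175), CpdA replicate 1 (0.0991) or CpdA replicate 3 (0.125), and over all alternatives its adjusted p ran from 0.0183 to 0.175. Cd3eap, the partner of Polr1e, and Crcp, a stalk subunit of polymerase III, did not pass (log2 fold changes 0.07 and 0.05, adjusted p = 0.560 and 0.597).

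**Figure D2:**
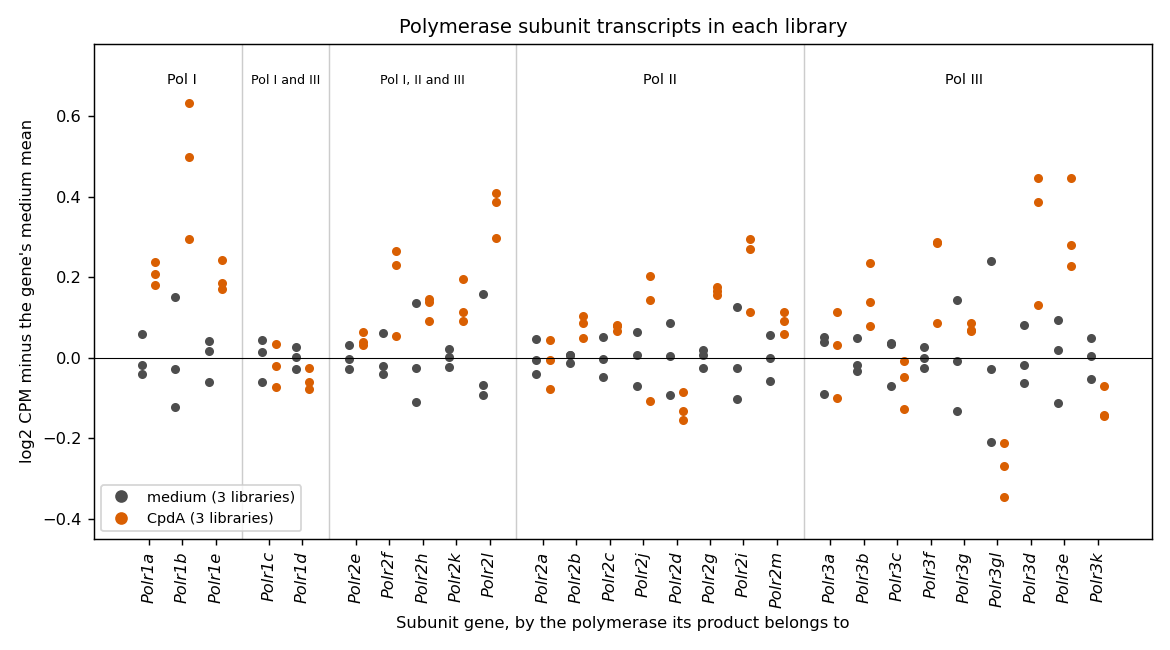
Log2 CPM of each subunit gene in each library, minus that gene's mean over the 3 medium libraries. Grey points are medium and orange points CpdA libraries. For Polr1a, Polr1b and Polr1e every orange point lies above every grey one, while for Polr1c and Polr1d the groups overlap.

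The alpha-like subunits that polymerases I and III share, around which both enzymes assemble, did not pass the test. Polr1c was at 109.2, 117.4 and 115.05 CPM in medium and 116.5, 108.3 and 112.3 CPM with CpdA, and the groups overlapped (log2 fold change -0.03 ± 0.04, adjusted p = 0.579). Polr1d was at 171.4, 167.8 and 174.4 CPM in medium and 168.3, 164.1 and 162.1 CPM with CpdA. These values also overlapped, with a log2 fold change of -0.06 ± 0.03 (adjusted p = 0.127).

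Of the subunits built into all 3 enzymes, Polr2l, a small zinc-binding subunit at the base of the assembly, rose most. It had 21.9, 26.1 and 22.3 CPM in medium and 30.6, 28.7 and 31.03 CPM with CpdA, without overlap. The log2 fold change was 0.35 ± 0.07 (adjusted p = 7.066e-05), or 1.27-fold. Polr2f, a shared subunit at the foot of the clamp, was at 42.9, 43.6 and 46.1 CPM in medium and 51.8, 45.9 and 53.05 CPM with CpdA. CpdA replicate 2 lay within the medium range, and the log2 fold change was 0.17 ± 0.05 (adjusted p = 0.0109). That call was lost without medium replicate 1 (adjusted p = 0.0503), CpdA replicate 1 (0.0504) or CpdA replicate 3 (0.102), with a range of 0.000847 to 0.102 over all alternatives. Polr2k, Polr2h and Polr2e did not pass, with log2 fold changes of 0.13, 0.11 and 0.03; Polr2h passed without medium replicate 3 (0.18, adjusted p = 0.0363).

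Of the polymerase II genes, Polr2a codes for the largest subunit, whose long tail carries the phosphorylation marks that guide transcription and RNA processing. It was at 338.8, 359.8 and 347.5 CPM in medium and 347.1, 330.0 and 359.2 CPM with CpdA, and the groups overlapped. Its log2 fold change was -0.02 ± 0.03 (adjusted p = 0.612), which turned to 0.0006 without medium replicate 2 and 0.01 without CpdA replicate 2. Polr2b, the second-largest subunit, had 110.9, 112.5 and 112.4 CPM in medium and 120.4, 118.9 and 115.9 CPM with CpdA. These values did not overlap, but the log2 fold change of 0.07 ± 0.04 did not pass (adjusted p = 0.134). The groups did not overlap for 16 of the 27 genes, 14 of them higher and 2 lower, against 43.9% of all genes tested (22.9% higher and 21.0% lower).

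The polymerase II genes that passed were Polr2g and Polr2d, whose products pair to form the stalk of the enzyme, and they went in opposite directions. Polr2g was at 65.1, 63.6 and 65.6 CPM in medium and 72.6, 73.1 and 72.1 CPM with CpdA, without overlap (log2 fold change 0.16 ± 0.04, adjusted p = 0.00380). Polr2d was at 57.6, 54.4 and 50.8 CPM in medium and 51.1, 49.4 and 48.6 CPM with CpdA, and CpdA replicate 1 lay within the medium range. Its log2 fold change was -0.14 ± 0.05 (adjusted p = 0.0340). This call was the least stable of the 12. It was lost without medium replicate 1 (adjusted p = 0.227), medium replicate 2 (0.0714), CpdA replicate 2 (0.0721) or CpdA replicate 3 (0.144), under DESeq2 (0.0767) and with the replicate number as a block (0.0531). Over all alternatives its adjusted p ran from 0.0149 to 0.227.

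The remaining polymerase II genes did not pass. Polr2i, the zinc-ribbon subunit involved in proofreading, missed the threshold at a log2 fold change of 0.21 ± 0.09 (adjusted p = 0.0696). It passed without medium replicate 3 (0.0402) or CpdA replicate 3 (0.0437). Polr2m codes for Gdown1, which binds the enzyme and blocks TFIIF unless the Mediator complex is present. Its log2 fold change was 0.08 ± 0.04 (adjusted p = 0.128), and it passed without medium replicate 2 (0.0479). The alpha-like subunits Polr2c and Polr2j both stood at 0.07 (adjusted p = 0.297 and 0.520). Polr2c was at 0.043 without medium replicate 3. Polr2j ran from 0.010 without CpdA replicate 3 to 0.16 without CpdA replicate 2, and was also lower without medium replicate 3 (0.039) or CpdA replicate 1 (0.045). Whether the counting used strand is not stated in the labels or headers, and in a GENCODE annotation of GRCm38 26.8% of the exon bases of Polr2i overlap Tbcb on the other strand. For Polr2c, 18.1% overlap Dok4, and for Polr2j, 15.9% overlap Lrwd1. Outside this class, 9.4% overlap 1700088E04Rik for Polr2f and 5.4% overlap Clcn2 for Polr2h, also on the other strand. Polr1a, Polr2b, Polr3b and Polr3gl had such overlaps of 1.6% to 4.7%.

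Among the polymerase III subunits, Polr3d and Polr3e form a pair that resembles TFIIF and acts in initiation and termination, and both rose. Polr3d (chr14:70438748-70443471) was at 19.8, 21.2 and 19.2 CPM in medium and 26.3, 22.0 and 27.3 CPM with CpdA, without overlap, with CpdA replicate 2 the lowest of its group. Its log2 fold change was 0.31 ± 0.07 (adjusted p = 0.000963). Polr3e was at 30.4, 28.8 and 26.3 CPM in medium and 38.8, 33.4 and 34.6 CPM with CpdA, without overlap (log2 fold change 0.31 ± 0.06, adjusted p = 0.000170).

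The large catalytic subunits of polymerase III did not pass. Polr3a, the largest, was at 44.6, 40.4 and 44.2 CPM in medium and 40.1, 46.6 and 44.0 CPM with CpdA. Both groups covered nearly the same range (log2 fold change 0.01 ± 0.06, adjusted p = 0.903), and the sign turned without medium replicate 2 (-0.03) or CpdA replicate 2 (-0.04). Polr3b, the second-largest, was at 31.9, 31.5 and 33.4 CPM in medium and 35.5, 34.1 and 37.97 CPM with CpdA. All CpdA libraries were higher, and the log2 fold change of 0.14 ± 0.06 narrowly missed the threshold (adjusted p = 0.0532). It passed without CpdA replicate 2 (adjusted p = 0.0259) and when libraries were scaled by their totals alone (0.0387), with a range of 0.0259 to 0.274 over all alternatives.

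The polymerase III trimer that opens DNA at the start site is built from Polr3c, Polr3f and either of the paralogs Polr3g and Polr3gl. Polr3g is known from stem cells and dividing cells and Polr3gl from most tissues. Polr3f rose, from 27.7, 28.1 and 28.7 CPM to 29.9, 34.3 and 34.3 CPM, without overlap (log2 fold change 0.22 ± 0.06, adjusted p = 0.00564). Polr3c, at 83.2 CPM in medium and 79.7 CPM with CpdA, did not pass (log2 fold change -0.07 ± 0.04, adjusted p = 0.208). Polr3gl (chr3:96577872-96594181) was at 28.2, 20.7 and 23.4 CPM in medium and 18.8, 19.8 and 20.7 CPM with CpdA. The groups did not overlap, but CpdA replicate 3 was less than 0.1 CPM below medium replicate 2. Its log2 fold change of -0.29 ± 0.08 (adjusted p = 0.00627) was the lowest of the 27 genes. Without medium replicate 1 the log2 fold change was -0.16 and the call was lost (adjusted p = 0.127), with a range of 0.000239 to 0.127 over all alternatives. Polr3g was at 21.9, 19.8 and 18.1 CPM in medium and 20.8, 21.1 and 20.8 CPM with CpdA, and the groups overlapped (log2 fold change 0.06 ± 0.07, adjusted p = 0.564). That value was 0.13 without medium replicate 1 and 0.0002 without medium replicate 3.

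Polr3k, the polymerase III subunit for RNA cleavage and termination, also fell. It was at 80.3, 74.9 and 77.9 CPM in medium and 70.2, 74.0 and 70.4 CPM with CpdA. The groups did not overlap, and the log2 fold change was -0.13 ± 0.04 (adjusted p = 0.0203). The call was lost without medium replicate 1 (adjusted p = 0.114), medium replicate 3 (0.0727), CpdA replicate 1 (0.0725) or CpdA replicate 3 (0.101) and with the replicate number as a block (0.0508). Over all alternatives the adjusted p ran from 0.0114 to 0.114.

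Ratios between corresponding subunits within a library do not depend on how libraries are scaled, so they set the enzymes side by side directly. Of 12 pairs compared, the ratio was higher with CpdA without overlap in 5 and lower in 1. For each of these the exact two-sided permutation p was 0.1, the smallest that 3 libraries against 3 can give, and 0.2 after adjustment over the 12 pairs, so none could pass the threshold. Some pairs share a gene, and the share of other gene pairs without overlap was not computed. For single genes tested that share was 43.9%. The ratio of Polr1a to Polr2a counts was 0.244, 0.246 and 0.242 in medium and 0.278, 0.298 and 0.279 with CpdA, a mean log2 difference of 0.22 ± 0.03 (SE). Medium libraries agreed closely and every CpdA library lay above them. The ratio of Polr1b to Polr2b was 0.355, 0.423 and 0.374 in medium and 0.553, 0.443 and 0.523 with CpdA (0.40 ± 0.12). That of Polr1b to Polr3b was 1.24, 1.51 and 1.26 in medium and 1.88, 1.55 and 1.60 with CpdA (0.32 ± 0.13). The largest and second-largest subunits of polymerase I stood higher against their polymerase II counterparts in every CpdA library.

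For the catalytic subunits of polymerase III against those of polymerase II, the groups overlapped. Polr3a to Polr2a differed by 0.03 ± 0.11 on the log2 scale (exact permutation p = 0.9, adjusted p = 0.9), and by -0.05 without CpdA replicate 2 and -0.04 without medium replicate 2. Polr3b to Polr2b differed by 0.07 ± 0.06 (exact permutation p = 0.5, adjusted p = 0.6), and by 0.11 without CpdA replicate 2 and 0.014 without CpdA replicate 3. Polr1a to Polr3a differed by 0.19 ± 0.09, with overlap (exact permutation p = 0.2, adjusted p = 0.3). The alpha-like pairs Polr1c to Polr2c (-0.10 ± 0.05) and Polr1d to Polr2j (-0.13 ± 0.11) overlapped as well (exact permutation p = 0.2 and 0.3). Without medium replicate 3 the first was -0.063 and the second -0.086, and the second was -0.23 without CpdA replicate 2 and -0.061 without CpdA replicate 3.

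Zinc-ribbon subunits help the enzymes cut back stalled RNA. The ratio of Polr3k to Polr2i was 7.39, 6.53 and 6.12 in medium and 4.99, 5.18 and 5.58 with CpdA (-0.34 ± 0.09 on the log2 scale). The ratio of Znrd1 to Polr3k was 0.365, 0.356 and 0.339 in medium and 0.442, 0.405 and 0.444 with CpdA (0.28 ± 0.05). In both pairs the groups did not overlap (exact permutation p = 0.1). Polr2i shares exon bases with Tbcb, as given above, and whether its counts used strand is not stated. Znrd1 to Polr2i overlapped (-0.06 ± 0.13, exact permutation p = 0.7) and turned to 0.04 without medium replicate 1. The ratio of the paralogs Polr3g to Polr3gl was 0.776, 0.955 and 0.772 in medium and 1.10, 1.06 and 1.01 with CpdA, a log2 difference of 0.35 ± 0.11 (exact permutation p = 0.1). These are ratios of counts and not of levels, since the deposited lengths are 3054 bases for Polr3g and 1427 bases for Polr3gl. Per length, Polr3gl stayed above Polr3g in both groups, at 16.9 against 6.53 FPKM in medium and 13.9 against 6.84 FPKM with CpdA.

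**Figure D3:**
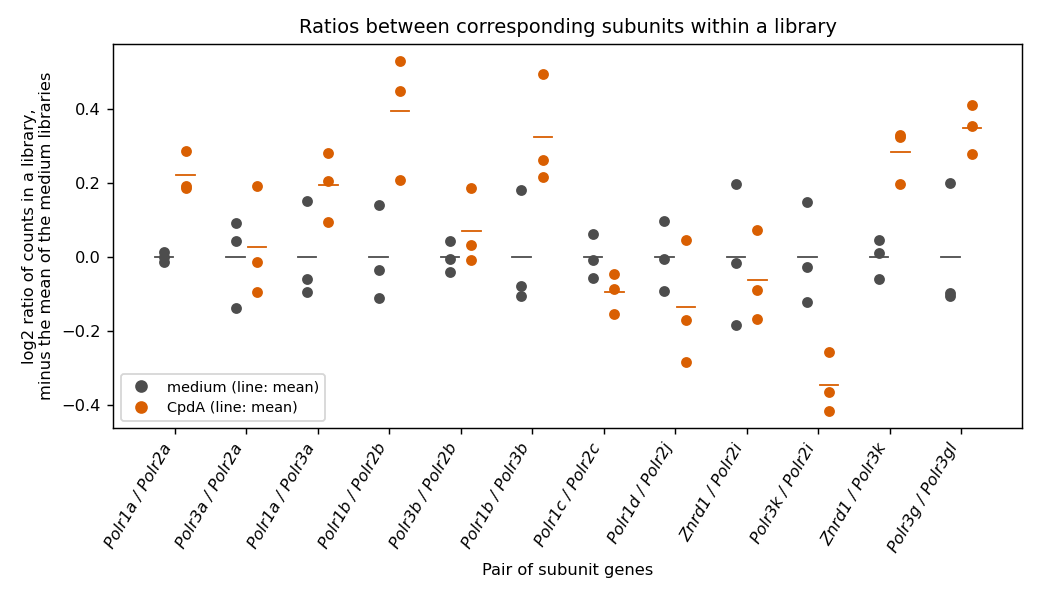
Log2 ratio of the counts of corresponding subunit genes within each library, minus the mean of the 3 medium libraries. Points are libraries and short lines are group means. Polr1a to Polr2a, Polr1b to Polr2b, Polr1b to Polr3b, Znrd1 to Polr3k and Polr3g to Polr3gl lie higher with CpdA without overlap, and Polr3k to Polr2i lower.

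Levels per length, as the deposited FPKM (counts scaled to gene length in kilobases and to the library total), differed widely among the subunits. In medium the highest were Polr1d at 143.2 ± 2.7 FPKM (SD, n = 3), Polr1c at 86.7 ± 3.2 and Polr2f at 81.4 ± 3.1, all of them subunits of more than one enzyme. Polr2g (74.6 ± 1.2), Polr2d (56.8 ± 3.5) and Polr2a (51.7 ± 1.6 FPKM) followed. Of the 7 lowest genes 6 were polymerase III genes and the other was Polr1e, with Polr3g (6.53 ± 0.63 FPKM) and Polr3f (6.39 ± 0.11 FPKM) at the end. The catalytic subunits stood in the order Polr2a, Polr1a (13.9 ± 0.5) and Polr3a (9.20 ± 0.50 FPKM), and Polr2b (27.01 ± 0.22), Polr1b (10.8 ± 1.0) and Polr3b (6.68 ± 0.20 FPKM).

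Within polymerase III, Polr3c (34.6 ± 1.4 FPKM), Polr3k (26.3 ± 0.9) and Polr3gl (16.9 ± 2.7) stood above the other members in medium, and these 3 genes had the negative fold changes of the enzyme. Neighbours in the order of the 27 genes overlapped in 16 of 26 cases, for example Polr1c and Polr2f, or Polr3e, Polr1e, Polr3b and Polr3g in turn. FPKM rests on the deposited gene length, which for Polr2l is 1650 bases, so levels between genes depend on the gene model.

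**Figure D4:**
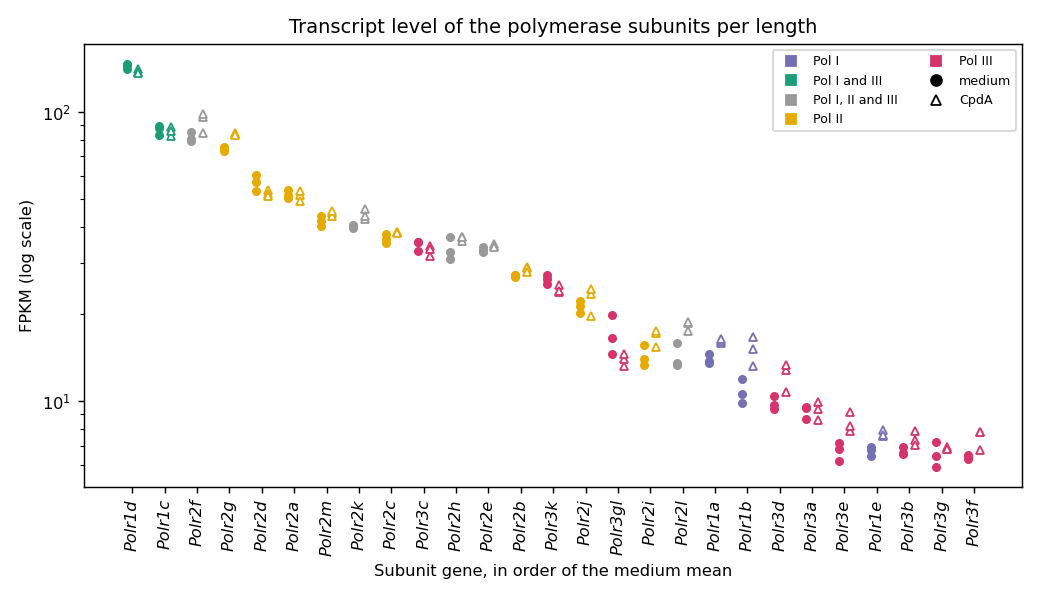
FPKM of each subunit gene in the 6 libraries on a log axis, in order of the medium mean. Filled circles are medium, open triangles CpdA libraries, and colours give the enzyme. Subunits shared by polymerases I and III lead at 143.2 and 86.7 FPKM, and 6 of the last 7 genes belong to polymerase III alone.

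Promoter sequences from RefSeq (GRCm38.p6, 250 bases before to 50 after the start) matched 22 of the 27 genes. The stretches below are the bases before the start of the polymerase I genes, which rose, and of the paralogs Polr3g and Polr3gl, whose count ratio did not overlap between groups. They lie outside annotated exons, and that of Polr1e ends 26 bases before the start. Capitals mark a GC box (GGGCGG), an ETS core (CCGGAA) or a CCAAT box (CCAAT), on either strand.
Polr1a, chr6:71908953-71909052, plus strand: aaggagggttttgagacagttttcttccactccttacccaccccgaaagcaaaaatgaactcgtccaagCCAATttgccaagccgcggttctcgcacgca
Polr1b, chr2:129100895-129100994, plus strand: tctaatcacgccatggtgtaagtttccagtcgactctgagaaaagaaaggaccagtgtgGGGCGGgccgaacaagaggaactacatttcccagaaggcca
Polr1e, chr4:45018483-45018582, plus strand: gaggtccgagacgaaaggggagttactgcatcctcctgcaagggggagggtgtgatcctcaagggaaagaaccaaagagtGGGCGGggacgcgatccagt
Polr3g, chr13:81711014-81711113, minus strand: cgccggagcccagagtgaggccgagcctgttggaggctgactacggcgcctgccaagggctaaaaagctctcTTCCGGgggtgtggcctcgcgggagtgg
Polr3gl, chr3:96594182-96594281, minus strand: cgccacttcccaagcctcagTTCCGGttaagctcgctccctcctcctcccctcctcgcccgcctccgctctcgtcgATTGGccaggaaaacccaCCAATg

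Within these 100 bases Polr1b and Polr1e each held a GC box, Polr1a a CCAAT box, Polr3g an ETS core, and Polr3gl an ETS core and CCAAT boxes on both strands. Over the full windows, 14 of 22 subunit genes held a GC box (63.6%, against 38.2% of 27025 genes with a window) and 11 an ETS core (against 16.7% of genes). A CCAAT box was found in 7 (31.8% against 41.1%) and a TATA box (TATAAA) in 2 (9.09% against 15.7%). The E-box CACGTG, a motif that Myc binds, was found in Polr2h, Polr3c, Polr3e and Polr3gl (18.2% against 8.09%), and in none of Polr1a, Polr1b and Polr1e. Of the genes with an E-box, Polr3e rose, Polr3gl fell, and Polr2h and Polr3c did not pass. The 27025 genes include many that did not pass the filter on low counts, which kept 13507, while all subunit genes passed it. Shares over the genes that passed were not computed, so these values do not set the subunits apart from other expressed genes. A match in these windows is a description and not a binding site.

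Partners of the polymerases and genes of mitochondrial transcription were described from lists that, with the 4 subunits under other names above, hold 71 genes. Of these 23 rose (32.4%) and 4 fell, against 16.5% higher and 16.7% lower over all genes tested and 23.7% higher in the range of levels of the subunit genes. Some of the listed genes lie below that range. Of the initiation and termination factors of polymerase I, 3 of 7 rose and 1 fell (median log2 fold change 0.14). Ubtf, which binds and bends ribosomal DNA, was at 164.9, 172.2 and 163.4 CPM in medium and 212.8, 201.5 and 211.3 CPM with CpdA. No library overlapped, and the log2 fold change was 0.31 ± 0.03 (adjusted p = 4.614e-10). Taf1d, a subunit of the promoter selectivity factor, rose by 0.31 (adjusted p = 2.271e-08), and Rrn3, which carries the enzyme to that promoter, by 0.27 (adjusted p = 5.307e-06). Ttf1, the termination factor, fell by 0.14 (adjusted p = 0.0408). Its call was lost without medium replicate 1 (adjusted p = 0.136), medium replicate 3 (0.190), CpdA replicate 1 (0.234) or CpdA replicate 3 (0.0818), under DESeq2 (0.0899) and limma-voom (0.0503), with the replicate block (0.0674) and scaled by library totals alone (0.0569), so that over all alternatives its adjusted p ran from 0.0136 to 0.234.

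Of 28 general and elongation factors of polymerase II, 10 rose and 2 fell (median 0.07), a share called of 42.9% against 33.2% of all genes tested and 43.8% at the levels of the subunit genes. Tcea1, which rescues stalled polymerase II, rose from 97.2 to 123.9 CPM (log2 fold change 0.34 ± 0.04, adjusted p = 1.172e-09). The TFIIH subunit Gtf2h1 rose by 0.31 and the TFIIA subunit Gtf2a2 by 0.22. Gtf2e2, the small subunit of TFIIE, was at 147.4, 147.7 and 146.6 CPM in medium and 112.4, 119.1 and 113.3 CPM with CpdA. The groups lay far apart (log2 fold change -0.37 ± 0.03, adjusted p = 4.949e-11). The other gene that fell, named after its value was seen, was Nelfb, a subunit of a pausing factor (-0.15, adjusted p = 0.000994).

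Of 17 polymerase III factors 5 rose and 1 fell (median -0.006). The share called was 35.3%, near the 33.2% of all genes tested and below the 43.8% at the levels of the subunit genes. Some genes of this list lie below that range of levels, so the last comparison is not at like levels throughout. The number that rose was 3 without CpdA replicate 1 and under DESeq2, and the number that fell was 0 without medium replicate 2 or CpdA replicate 2. Ssb codes for the La protein, which binds the ends of new polymerase III transcripts. It rose from 168.5 to 202.0 CPM (log2 fold change 0.25 ± 0.03, adjusted p = 1.036e-07). Bdp1, a part of the initiation factor TFIIIB, rose by 0.18 (adjusted p = 0.00227), and Gtf3c2 and Gtf3c6, subunits of TFIIIC, by 0.21 and 0.22 (adjusted p = 0.00233 and 0.0209). The call of Gtf3c6 was lost without medium replicate 1 (adjusted p = 0.109), medium replicate 2 (0.0525), CpdA replicate 1 (0.0646) or CpdA replicate 3 (0.0619) and under DESeq2 (0.0529), with a range of 0.0123 to 0.109 over all alternatives. Maf1, the repressor of polymerase III, was at 73.4, 71.6 and 69.0 CPM in medium and 66.8, 63.0 and 67.3 CPM with CpdA. Named after its values were seen, it fell by 0.13 (adjusted p = 0.0215), without overlap. That call was lost without medium replicate 1 (adjusted p = 0.106), medium replicate 2 (0.0504) or CpdA replicate 2 (0.122), with a range of 0.0118 to 0.122 over all alternatives.

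Of 11 genes for polymerase assembly and import 18.2% were called, against 33.2% of all genes tested and 43.8% at the levels of the subunit genes. By edgeR 2 rose and 0 fell, with 1 lower at an unadjusted p under 0.05 and 0 by DESeq2 (median 0.01). They were Ruvbl1, an ATPase of the assembly chaperone (0.18, adjusted p = 0.000126), and Slc7a6os, which helps bring polymerase II into the nucleus (0.21, adjusted p = 0.00530). Of 4 genes of mitochondrial transcription 1 rose and 0 fell by edgeR, with 0 lower at an unadjusted p under 0.05 and by DESeq2. It was Tfam, which packs mitochondrial DNA (0.19, adjusted p = 0.00348, and 0.0537 without medium replicate 1). Without CpdA replicate 2 the number was 2. Polrmt, the polymerase of mitochondria, singled out here after its value was seen, did not pass (0.15, adjusted p = 0.0691).

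Myc, a transcription factor known to raise the output of all 3 polymerases, was at 233.7, 254.6 and 239.5 CPM in medium and 271.1, 247.0 and 273.8 CPM with CpdA. CpdA replicate 2 lay within the medium range, and the log2 fold change was 0.11 ± 0.04 (adjusted p = 0.0136). The call was lost without medium replicate 1 (adjusted p = 0.0927), medium replicate 3 (0.0609), CpdA replicate 1 (0.0702) or CpdA replicate 3 (0.106), with a range of 0.000576 to 0.106 over all alternatives. Among the 27 subunit genes, CpdA replicate 2 was the lowest of its group for 12, CpdA replicate 1 for 8 and CpdA replicate 3 for 7. CpdA replicate 2 was also the highest of its group for 9, CpdA replicate 1 for 8 and CpdA replicate 3 for 10. These counts were not made over all genes, and whether the subunits follow Myc was not tested. Mki67, a marker of dividing cells, rose from 642.3 to 721.1 CPM (log2 fold change 0.16 ± 0.03, adjusted p = 3.667e-05). The part of cell division in the change of the subunits was not tested.

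**Figure D5:**
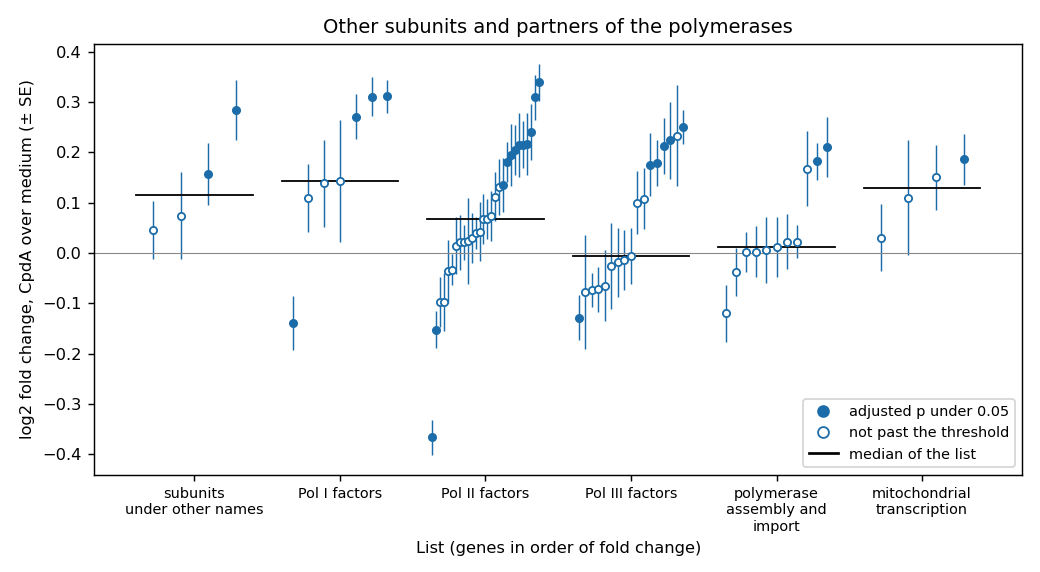
Log2 fold change of each gene in 6 lists, CpdA over medium, with its SE. The lists hold polymerase subunits under other names, partners of the polymerases and genes of mitochondrial transcription. Filled points passed an adjusted p under 0.05 and black lines are list medians. Ubtf, Taf1d and Rrn3 lead the polymerase I factors at 0.27 to 0.31, and Gtf2e2 stands lowest of all at -0.37.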

How the data were processed

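The values were 2 kinds of column for 6 libraries: read counts for each gene and FPKM, which the authors deposited beside them. The file headers name the first kind as read counts, and these were assumed not to have been normalized. FPKM equals CPM over the deposited length in kilobases, to a relative difference of at most 1.86e-07. Of the software used upstream, CASAVA 1.8 is in the submitters' processing notes, as are GRCm38 and mm10. Aligner, counting tool and strand setting: not given in the sources used here. Columns of values with no library of the series numbered 0. Groups and replicate numbers were taken from the labels.

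All 21139 genes entered filterByExpr of edgeR 4.0.16 in R 4.3.3 (minimum count 10, minimum total 15), which kept 13507. Fold changes, SE and p-values come from the quasi-likelihood test without covariates, after TMM scaling and with robust dispersions, adjusted by Benjamini-Hochberg over all genes kept, and a gene was called at an adjusted p under 0.05. CPM are counts scaled to the library total. Ratios of counts were compared by exact two-sided permutation of libraries. The steps were tested on simulated counts. Alternatives were DESeq2 1.42.0, limma-voom (limma 3.58.1), other scalings and filters, a replicate block and leaving out each library.

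Of the 28 subunit genes 27 are named and 1 is not reported here, with all subunits under other names, up to 4 called genes of smallest p from each other list, and Myc and Mki67. Nelfb, Maf1 and Polrmt fall outside this rule and were added with their values in view. The subunit genes and the lists were chosen with earlier results of these data known.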

Additional observations from a re-analysis of the deposited data

How the results depend on the processing

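Over 13 alternatives, 7 of the 12 called subunit genes kept their call under each (Polr1a, Polr1b, Polr2g, Polr2l, Polr3d, Polr3e and Polr3f) and 5 lost it under at least 1. Another 4 passed under at least 1. The log2 fold change turned for Polr2a (0.0006 without medium replicate 2 and 0.0093 without CpdA replicate 2; range -0.049 to 0.0093 with 1 library fewer) and Polr3a (-0.033 and -0.040; range -0.040 to 0.066). Other log2 fold changes that did not pass and that 1 library moved by over 1.5 times were those of Polr1c (-0.059 to -0.0045), Polr2e (from 0.021), Polr2h (0.059 to 0.18), Polr2m (from 0.052), Polr3c (to -0.038), Cd3eap (0.014 to 0.18) and Crcp (0.015 to 0.086). The same held for Polr2c (from 0.043), Polr2j (0.010 to 0.16) and Polr3g (0.0002 to 0.13). With 1 library fewer, 8 to 11 of the 27 genes rose and 0 to 2 fell. The number that rose was 1 to 3 for the subunits of all 3 enzymes and 1 to 2 for polymerase II, and the number that fell was 0 to 1 for polymerase II and 0 to 2 for polymerase III. Medians ran from 0.076 to 0.11 over all 27 genes (0.094 without CpdA replicate 2), from 0.12 to 0.18 for the subunits of all 3 enzymes, from 0.047 to 0.10 for polymerase II and from 0.034 to 0.13 for polymerase III. The log2 ratio of Polr3a to Polr2a ran from -0.054 to 0.091 (-0.040 without medium replicate 2) and that of Znrd1 to Polr2i from -0.15 to 0.038. Under DESeq2, 8 subunit genes rose and 2 fell, with 0 polymerase II genes lower. With the replicate block 9 rose and 1 fell, 0 of polymerase II and 1 of polymerase III. Libraries that share only a number had nearly uncorrelated deviations (correlation -0.0126 to -0.0572), so the numbers were not taken as pairs. Over all genes the block gave 3936 calls against 4483. The cause was not tested, other than that settings with 1 library fewer rest on fewer samples. Each subunit gene had 220 to 9053 counts in a library, and 3 libraries a group limit how well the spread is known.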
